A study of Mus musculus with 3 samples.

Results

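Chemokines are small secreted proteins that guide migrating cells, and their receptors are G protein-coupled receptors on the cells that follow them. The genes described here are all protein-coding genes of the GENCODE M21 annotation named as C-C, C-X-C, X-C or C-X3-C chemokines, as receptors of these classes or as atypical chemokine receptors, with Ccrl2 added. The name rule found 68 genes of the 52636 identifiers counted: 44 ligands, 19 receptors and 5 atypical receptors. Of these, 61 lie on chromosomes and 7, all ligands, are copies of Ccl19, Ccl21 or Ccl27 on scaffolds without a place in the assembly. The platelet chemokine genes Pf4 and Ppbp do not carry such names and were not members.

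The study concerns the loss of Cic, the gene of the transcriptional repressor capicua, and T cell lymphoma in mice. The data described here are RNA-seq counts of 3 normal thymi from C57BL/6 mice, 1 library each, called thymus 1, 2 and 3 after the replicate numbers in the labels. All 3 carried the genotype Cic flox/flox and had received tamoxifen. The labels used here name neither a Cre transgene nor the age or sex of the mice, and lymphomas were not analysed here. There is 1 group, so the comparisons are between genes within a thymus and between replicate thymi. Nothing in the labels ties a library to an animal, so the p-values speak of the scatter among 3 libraries alone, part of which may be technical.

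Developing T cells cross the thymus along chemokine gradients. Progenitors enter under Ccl25, Cxcl12 and Ccl21, settle in the cortex through Ccr9 and Cxcr4, and move to the medulla through Ccr7 and Ccr4 once they have been positively selected. Other chemokines recruit dendritic cells, macrophages, B cells and innate lymphocytes to the organ, and atypical receptors take up chemokines without activating G proteins.

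The libraries held 25408442 to 30414788 reads counted on the sense strand of genes. Levels are CPM, read counts relative to library size scaled by TMM, and are given per kilobase of merged exons where genes are compared with each other. Errors are SDs over 3 libraries. A gene with 3 counts, the limit used for a count of 0, lies between 0.0986 and 0.122 CPM. Such limits cover counting error only. Cic was at 259, 271 and 262 CPM. Every one of 9 double-positive thymocyte markers and 6 cortical epithelium markers reached 1 CPM in all libraries, so the tissue label was matched by its defining genes.

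The Ccl21 genes, whose products bind Ccr7, are nearly identical copies, so their sequences are shown before any level. Ccl21a (chr4:42772860-42773993, minus strand) and Ccl21b (chr4:42255767-42256432, plus strand) had 0 reads in all 3 libraries, as did their 4 scaffold copies. The coding sequences of Ccl21a and Ccl21b, both 402 bases long, differ at 2 positions, T84A and C194T, counted from 1 at the first base of the start codon with the base of Ccl21a first. The same substitutions separate Ccl21a from Gm10591, Gm13304 and Gm21541, annotated as protein-coding genes nearby, which also had 0 reads in every library. The 50 bases around each position, from GENCODE transcripts on GRCm38, show how little tells the copies apart. Capitals mark the differing base, first at coding bases 59 to 108 and then at 169 to 218.

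Ccl21a: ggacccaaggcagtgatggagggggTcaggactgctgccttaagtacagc
Ccl21b: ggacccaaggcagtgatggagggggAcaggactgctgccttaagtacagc
Ccl21a: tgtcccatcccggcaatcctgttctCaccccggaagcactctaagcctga
Ccl21b: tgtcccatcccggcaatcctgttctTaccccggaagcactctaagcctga

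Of the 50-base stretches of Ccl21a, 71.6% occur in transcripts of other genes on chromosomes, and of those of Ccl21b 100%. Transcripts of the scaffold copies were not compared. The layout of the files is that of STAR's gene counting, which leaves out reads that map to several places, and such reads made up 14.0% to 15.5% of each library. How many of them came from Ccl21 was not tested. The stretches of Ccl21a without a match on chromosomes had no reads either. These stretches were not compared with the scaffold copies, so whether their reads would be counted is unknown. The 0 counts of these genes are therefore reported as uncertain. Ccl27b, at 0 reads, shares 98.1% of its stretches, Ccl19 shares 52.0% and Ccl27a 45.0%, and the levels of the last 2 are likewise uncertain. Ccl26 is the remaining chromosomal member at 0 reads in all libraries.

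Of the 68 genes, 40 reached 1 CPM in all 3 libraries, namely 22 ligands, 15 receptors and 3 atypical receptors. The background is similar: 58.4% of all protein-coding genes reached that level. Another 24 stayed below 1 CPM in every library, and Ccl3, Ccl24, Cxcl1 and Ackr1 crossed the threshold between libraries. Only Ccr9, Ccl25, Cxcr4 and Cxcl12 exceeded 100 CPM in every library. These 4 genes held 82.8%, 80.7% and 86.5% of the summed CPM of all members in thymus 1, 2 and 3.

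**Figure D1:**
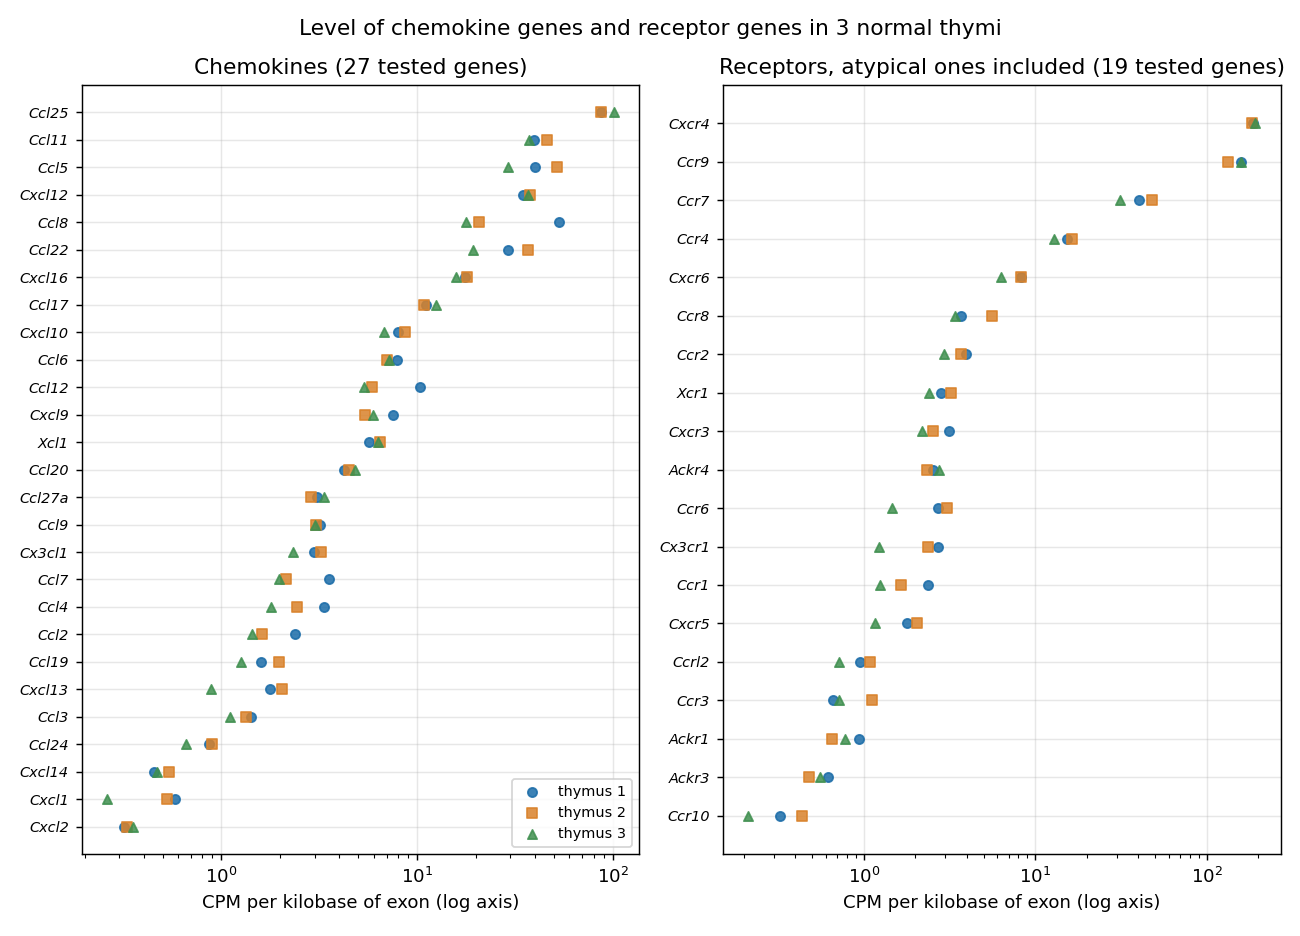
Level of 46 members with enough counts to test, in CPM per kilobase of exon on a log axis, with 1 symbol per thymus, ligands on the left and receptors on the right. Cxcr4 and Ccr9 stand above all other receptors and Ccl25 above all other ligands in each thymus, while Ccl8 is spread widely between thymi.

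Ccr9 and Ccl25 form a pair that helps thymocytes settle in the cortex. Ccr9 (chr9:123678439-123784330) was the member with the most reads, at 1635, 1365 and 1630.5 CPM in thymus 1, 2 and 3. Thymus 2 was the lowest of the 3. Its ligand gene Ccl25 (chr8:4325210-4360020), a product of thymic epithelium, stood at 647, 648 and 756 CPM. Thymus 3 was the highest, but after correction for GC content it was thymus 2, with deviations from the gene mean of 0.055 in log2 CPM against 0.039. The coefficient of variation was 9.15%, beside a median of 9.06% over all genes tested.

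Per kilobase, Ccr9 was at 150.4 ± 15.1 (SD, n = 3) and Ccl25 at 91.8 ± 8.40. The ligand level was 0.613 ± 0.0588 times the receptor level within a library. Both genes have several transcripts, so the length chosen matters. With the longest transcript in place of merged exons the levels were 297 and 268 and the ratio 0.907. A further 2.62% of the exon bases of Ccr9 overlap Gm17200 on the same strand, where reads are ambiguous and not counted.

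Cxcr4 (chr1:128588199-128592293), needed by early thymocytes to respond to stromal Cxcl12, was the steadiest of the abundant members. It was at 339, 333 and 347 CPM, a coefficient of variation of 2.14%. Per kilobase it reached 188 ± 4.02, above Ccr9 in every library. That order was reversed with the length of the longest transcript, which left Cxcr4 at 188 and moved Ccr9 to 297. Cxcl12 (chr6:117168535-117181367) was at 286, 309.5 and 302 CPM, a coefficient of variation of 4.02%, and at 36.6 ± 1.47 per kilobase. The ligand level was thus 0.195 ± 0.00994 times that of Cxcr4. With the longest transcript Cxcl12 was at 53.2 and the ratio was 0.282, so the SD leaves out the choice of length.

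Ccr7, the receptor that brings selected thymocytes into the medulla, came next after Ccr9 among receptors per kilobase at 40.2, 47.8 and 31.3, with the lowest value in thymus 3. Of its ligand genes only Ccl19 could be read, at 1.59, 1.97 and 1.26 per kilobase, from 42, 50 and 27 counts. The ratio of Ccl19 to Ccr7 was 0.0404 ± 0.000739, an SD that leaves out the counting error of so few reads and the shared stretches of Ccl19. The differences in Ccl19 between thymi did not exceed counting noise (Poisson goodness of fit, adjusted p = 0.265). Ccl19-ps1, a related pseudogene, had 14, 16 and 13 counts of its own.

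Ccr4 also serves entry into the medulla. It was at 15.4, 16.4 and 12.9 per kilobase. Its ligand gene Ccl22, made by dendritic cells, was at 29.0, 37.1 and 19.2 per kilobase, lowest in thymus 3 and highest in thymus 2. The other ligand gene, Ccl17, lies in the same cluster on chromosome 8 and was at 11.1, 10.9 and 12.6 per kilobase, with the highest value in thymus 3. The 2 genes thus had opposite orders, but the differences in Ccl17 did not exceed counting noise (Poisson goodness of fit, adjusted p = 0.501). Cx3cl1, which lies between the 2 genes and encodes membrane-bound fractalkine, was at 2.97, 3.24 and 2.32 per kilobase.

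Receptors of dendritic and innate cells and of mature T cells followed at lower levels. Cxcr6, carried by natural killer T cells and resident T cells, was at 8.32, 8.26 and 6.35 per kilobase. Its transmembrane ligand gene Cxcl16 was at 17.7, 18.0 and 15.7, which is 2.26 ± 0.193 times the receptor. Xcr1, a receptor of cross-presenting dendritic cells, was at 2.82, 3.24 and 2.41, and its ligand gene Xcl1 at 5.66, 6.45 and 6.28. Their coefficients of variation were 14.8% and 6.85%.

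Ccr8 is found on regulatory T cells and maturing CD4 T cells. It was at 3.72, 5.63 and 3.42 per kilobase, highest in thymus 2. Of its mouse ligand genes, Ccl1 had 3, 8 and 0 counts, while Ccl8 was at 30.5 ± 19.5 per kilobase, or at 19.2 without thymus 1. Ccr6, a receptor of B cells and interleukin-17 producing cells, was at 2.71, 3.06 and 1.47, and its ligand gene Ccl20 at 4.21, 4.49 and 4.83. The ratio of Ccl20 to Ccr6 was 1.56, 1.47 and 3.28, with Ccr6 lowest in thymus 3. The differences in Ccl20 did not exceed counting noise (Poisson goodness of fit, adjusted p = 0.563), and after correction for GC content its highest value was that of thymus 2.

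Cxcr3 and its interferon-induced ligand genes were all expressed. Cxcr3 was at 3.13, 2.54 and 2.20 per kilobase. Cxcl9 was at 7.57, 5.44 and 5.99 and Cxcl10 at 7.97, 8.68 and 6.74. Cxcl9 was highest in thymus 1 and Cxcl10 in thymus 2, so the neighbouring genes did not share an order. Cxcl11 is annotated as a polymorphic pseudogene and was therefore no member. It had 68, 79 and 71 counts.

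Monocyte and macrophage chemokines spanned a wide range. Ccr2, the main receptor of monocytes, was at 3.95, 3.68 and 2.94 per kilobase, and Ccr1, found on macrophages and other myeloid cells, at 1.76 ± 0.574. Ccl5, a ligand of Ccr1 and Ccr3 made by cytotoxic and innate lymphocytes, was at 39.9, 51.7 and 29.0. Ccl3 and Ccl4, macrophage inflammatory proteins made by activated cells, were lower in every library at 1.29 ± 0.157 and 2.52 ± 0.781. The rodent myeloid chemokine genes Ccl6 and Ccl9 were steady at 7.36 ± 0.439 and 3.10 ± 0.0967. Cx3cr1, the fractalkine receptor of mononuclear phagocytes, was at 2.73, 2.38 and 1.23, lowest in thymus 3.

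Of the eotaxin genes, Ccl11 far exceeded the receptor gene Ccr3 and Ccl24 did not. Ccl11, eotaxin-1, was at 39.4, 45.9 and 37.5 per kilobase. Its mean of 40.9 ± 4.40 lay within the spread of that of Ccl5, 40.2 ± 11.4, so their order was not resolved. Ccr3, the eosinophil receptor, was at 0.663, 1.13 and 0.719, so the ligand stood 50.8 ± 9.39 times higher. Ccl24, eotaxin-2, was at 0.805 ± 0.129. B cell attracting Cxcl13 and its receptor gene Cxcr5 were close to each other, at 1.57 ± 0.608 and 1.67 ± 0.463.

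Chemokines that draw neutrophils were low. Cxcl1 and Cxcl2 were at 0.853 ± 0.321 and 0.690 ± 0.0371 CPM. Cxcl5 had 6, 3 and 5 counts and Cxcl3 had 4, 1 and 7. Their receptor gene Cxcr2 had 3, 11 and 9 counts. Cxcl15 and Cxcr1 had at most 3 counts in every library, and Ccr1l1, a relative of Ccr1, had 5, 3 and 1. Chemokines of skin and mucosa were also low: Ccl28 had 2, 12 and 6 counts, Cxcl17 had 8, 5 and 9, and Cxcl14 was at 0.887 ± 0.0890 CPM. Ccl27a, at 7.38 ± 0.551 CPM, was higher, while its receptor gene Ccr10 was at 0.558 ± 0.192 CPM.

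The atypical receptors were all low per kilobase. Ackr4, which takes up Ccl19, Ccl21 and Ccl25, was the highest at 2.52, 2.33 and 2.75, and Ccl25 stood 36.2 ± 1.54 times above it. With the longest transcript its level was 5.06. Ccrl2, which presents the attractant chemerin and is not known to signal, was at 0.949, 1.09 and 0.718. Ackr1, an inflammatory chemokine carrier of venules and red cells, was at 0.936, 0.655 and 0.780. Of its exon bases 25.7% overlap Cadm3 on the same strand, so its counts are too low by an unknown amount. Ackr3, a second receptor of Cxcl12, was at 0.618, 0.479 and 0.557. Ackr2, which clears inflammatory C-C chemokines, had 15, 16 and 6 counts and was too low to test.

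**Figure D2:**
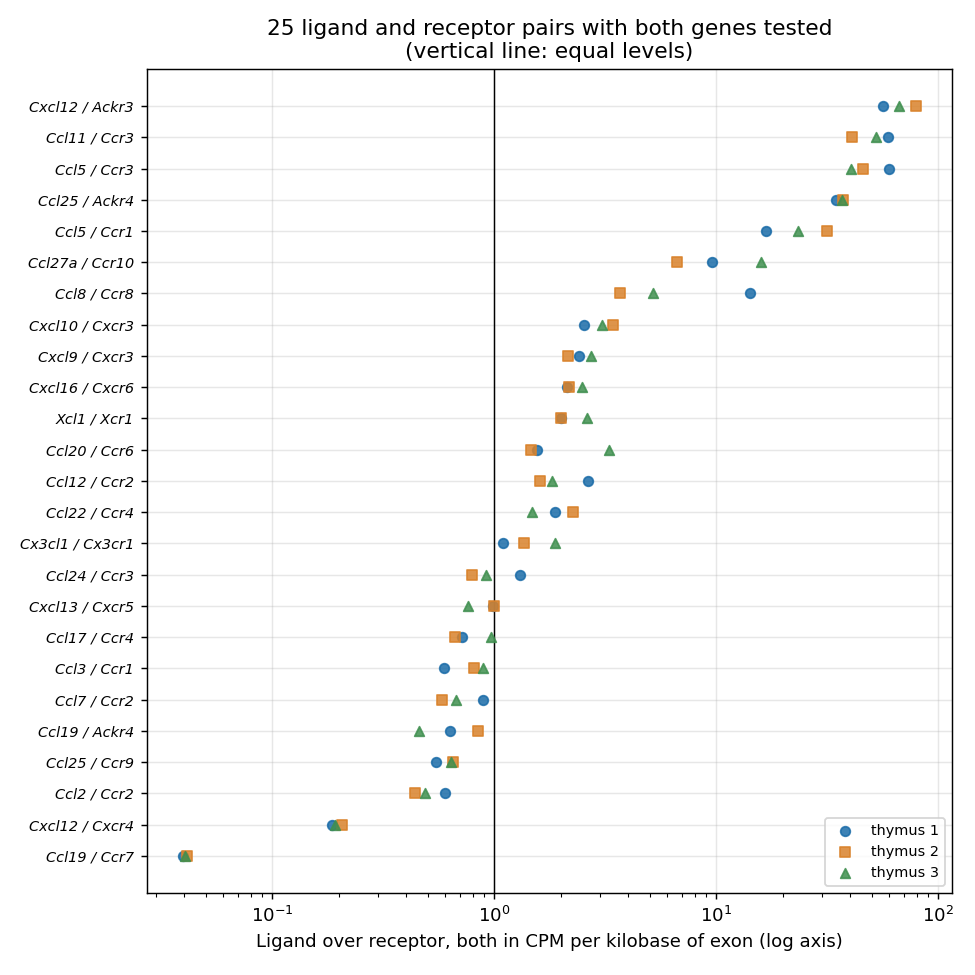
Ratio of ligand to receptor, both in CPM per kilobase of exon, for 25 listed pairs with both genes tested, on a log axis with 1 symbol per thymus. The ligand was the higher partner in all 3 thymi for 15 pairs and the receptor for 9, among them Ccl25 with Ccr9 and Cxcl12 with Cxcr4.

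Position in the genome was not part of the rule, and levels were uneven within gene clusters. On chromosome 9, Ccr9 lies in a cluster with Cxcr6, Xcr1, Ccr1, Ccr1l1, Ccr3 and Ccr2, whose levels ran from 150.4 per kilobase for Ccr9 to 0.0878 for Ccr1l1. On chromosome 5, the 5 neutrophil chemokine genes from Cxcl5 to Cxcl2 all stayed at or below 0.455 per kilobase on average, and 0 of them reached 1 CPM in every library. On chromosome 11, 6 genes from Ccl2 to Ccl1 ranged from 0.0523 to 40.9, and 5 genes from Ccl5 to Ccl4 from 1.29 to 40.2.

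The spread between thymi was examined next. Enough counts to test were found for 47 members: 27 ligands, 16 receptors and 4 atypical receptors. Of these, 0 varied more than other genes of like abundance by edgeR's quasi-likelihood test at a Benjamini-Hochberg threshold of 0.05, where 0.0604% of all 16548 genes tested did. At an unadjusted p under 0.05 there were 8 members, 17.0% of the 47, beside 4.42% of all genes tested. They were Ccl8, Ccl22, Ccl5, Cx3cr1, Ccr7, Ccr6, Ccl12 and Ccr1. By edgeR's negative binomial goodness of fit 3 members were called, Ccl8, Ccl22 and Ccl5 (background 0.737%), and by DESeq2 dispersion outliers 2, Ccl8 and Ccl22 (background 0.489%).

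Variation beyond counting noise was more common. By Poisson goodness of fit 30 of the 47 members passed the same threshold, beside 43.4% of all genes tested. They were 15 of 27 ligands, 15 of 16 receptors and 0 of 4 atypical receptors. Ccr9, Ccl25, Cxcl12 and Cxcr4 were among the 30, since at their depth small differences exceed counting error. Without thymus 3 the count was 13, and that over all genes went from 7188 to 3768.

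Ccl8, which attracts cells through Ccr8, had the smallest p of the members. It was at 27.1, 10.6 and 9.09 CPM (823, 310 and 224 counts), with thymus 1 standing apart from the other 2. Its quasi-likelihood p was 0.000679 and the adjusted p from edgeR 0.312. The edgeR adjusted p was 0.0387 without thymus 2 and 1.06e-12 without thymus 3, but 0.991 without thymus 1, and ranged from 1.01e-12 to 0.991 over 10 alternatives. The calls over all genes were 23 without thymus 2, 137 without thymus 3 and 25 without thymus 1, against 10 in the main test.

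Of the neighbours of Ccl8 on chromosome 11, Ccl2, Ccl7 and Ccl12 shared its order. Tested members outside the cluster had it too, namely Ccl3, Ccl4, Ccl9, Cxcl1, Ccr1, Ccr2, Cxcr3, Cxcr6 and Cx3cr1. How many of all genes tested had this order was not counted. Ccl2, which recruits monocytes through Ccr2, was at 2.70, 1.84 and 1.62 CPM. Ccl7, a ligand of the same receptor, was at 2.83, 1.70 and 1.58, and Ccl12, another one, at 5.59, 3.17 and 2.88. In all 4 genes thymus 1 was highest and thymus 3 lowest, and thymus 1 exceeded thymus 3 by 1.66 times for Ccl2, 1.79 for Ccl7, 1.94 for Ccl12 and 2.98 for Ccl8. Ccl11, which lies between Ccl7 and Ccl12, was highest in thymus 2 at 49.7 CPM, against 42.6 and 40.6. The unadjusted p was 0.0367 for Ccl12, 0.106 for Ccl7 and 0.179 for Ccl2 in edgeR's quasi-likelihood test, with adjusted p = 0.984 for each.

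**Figure D3:**
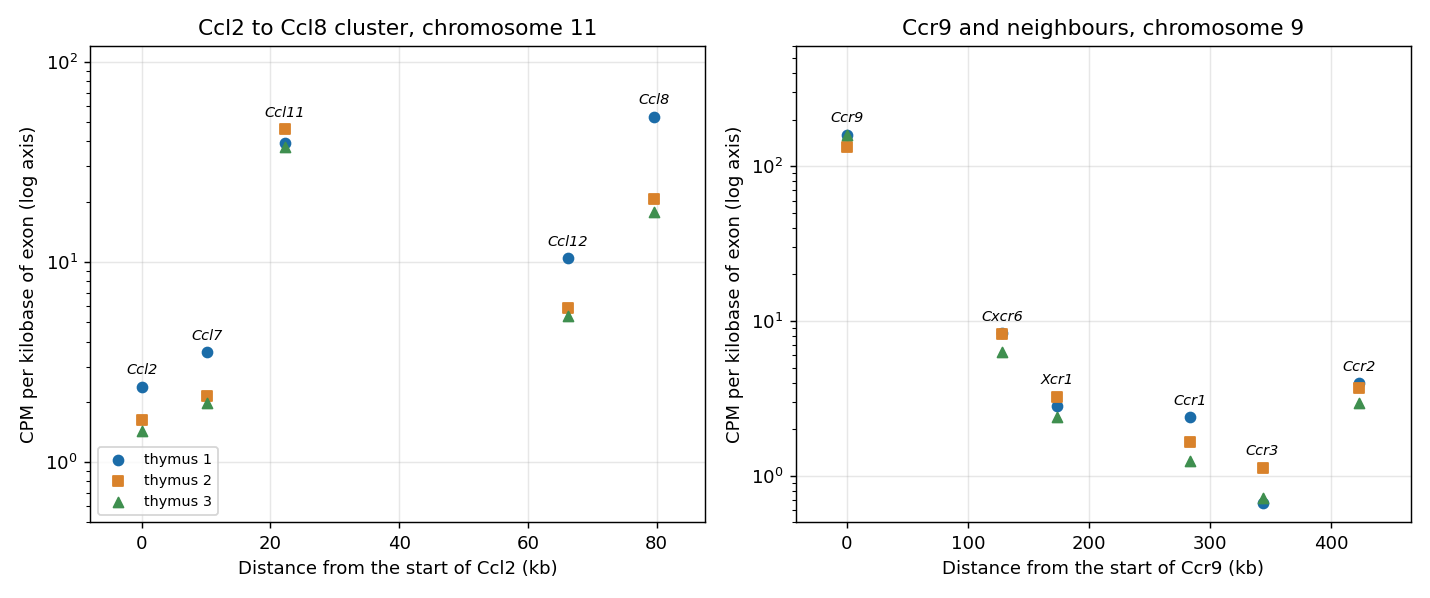
Level in CPM per kilobase of exon on a log axis against distance in kb from the first gene, for the tested genes of the chromosome 11 cluster from Ccl2 to Ccl8 and for Ccr9 and 5 tested neighbours on chromosome 9, with 1 symbol per thymus. Thymus 1 is highest for Ccl2, Ccl7, Ccl12 and Ccl8 but not for Ccl11, and Ccr9 stands far above its neighbours.

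The macrophage marker list was also highest in thymus 1 and lowest in thymus 3. Its summed level was 509, 462 and 423 CPM in thymus 1, 2 and 3, and all 8 of its genes were lowest in thymus 3. Of the 8, 6 were highest in thymus 1. Timd4, a receptor of resident macrophages, was at 17.9, 8.18 and 5.27 CPM. It had the smallest quasi-likelihood p of the list, 0.00119 (edgeR adjusted p = 0.425). The other genes differed less, with Adgre1 at 29.6, 27.6 and 27.5 CPM and C1qc at 131, 125 and 120. Other lists with their highest sum in thymus 1 were those of red cells at 936, 43.3 and 207 CPM, parathyroid at 76.7, 33.0 and 47.7, B cells at 98.0, 90.1 and 75.3, and platelets at 5.46, 4.09 and 5.15. Mature and regulatory T cell markers, given with thymus 3, were also highest in thymus 1. The part of any of these in the Ccl8 result was not tested, and in bulk tissue fewer cells of a type cannot be told apart from less RNA per cell.

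The sequence before the starts of Ccl8 and Ccl12 is shown because these neighbours on chromosome 11 shared an order between thymi. Both are in the RefSeq promoter table on GRCm38.p6. Of the members outside the cluster with that order, at least Ccl9 and Cxcl1 are also in that table and are not shown. Of the 68 members, 47 names matched that table, and Ccl2, Ccl7 and Ccl11 are not shown. The 250 bases upstream, plus strand, are chr11:82114935-82115184 for Ccl8 and chr11:82101595-82101844 for Ccl12. Capitals mark the motif TATAAA, the core of a TATA box.

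Ccl8: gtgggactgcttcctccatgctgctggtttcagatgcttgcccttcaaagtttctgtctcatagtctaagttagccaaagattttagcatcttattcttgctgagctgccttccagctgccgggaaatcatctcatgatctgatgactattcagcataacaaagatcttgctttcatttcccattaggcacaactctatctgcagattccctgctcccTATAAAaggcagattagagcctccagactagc
Ccl12: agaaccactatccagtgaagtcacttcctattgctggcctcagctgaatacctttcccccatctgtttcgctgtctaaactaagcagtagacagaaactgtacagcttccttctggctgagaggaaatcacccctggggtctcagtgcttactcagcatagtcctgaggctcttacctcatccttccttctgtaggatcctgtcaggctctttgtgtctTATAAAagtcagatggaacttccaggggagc

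TATAAA was searched on both strands and begins 32 bases before the start of Ccl8 and 31 before that of Ccl12. It occurs in 12.4% of all 32851 promoter windows of that length, and in 15 of the 56 windows of members. Among the other members with it are Ccl25, Ccl9, Cxcl9, Cxcl13 and Cxcr4, while Cxcl1 lacks it. A match is a description of the sequence and no sign of a working site.

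Most members, those of the Ccl8 cluster included, were lowest in thymus 3. Of the 47 tested, 31 had their lowest value there, or 66.0%, beside 39.7% of all genes tested, and 13 of the 16 receptors did. The median deviation of the members from the gene mean was 0.06, 0.07 and −0.22 in log2 CPM for thymus 1, 2 and 3, while the medians over all genes tested were 0.00, 0.00 and −0.01. Conversely, 18 members were highest in thymus 1 (background 24.1%) 22 in thymus 2 (background 38%) and 7 in thymus 3 (background 37.9%), while 9 were lowest in thymus 2 (background 36%) and 7 in thymus 1 (background 24.3%). The 7 highest in thymus 3 were Ccl25, Ccl17, Ccl20, Ccl27a, Cxcl2, Cxcr4 and Ackr4, of which 2, Ccl25 and Ccl20, were highest in thymus 2 after correction for GC content. Over all 47 members tested, this correction changed the highest library of 6. Besides Ccl25 and Ccl20, Ccl9, Ccr2 and Cxcr6 went from thymus 1 to thymus 2, and Cxcl12 from thymus 2 to thymus 3.

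**Figure D4:**
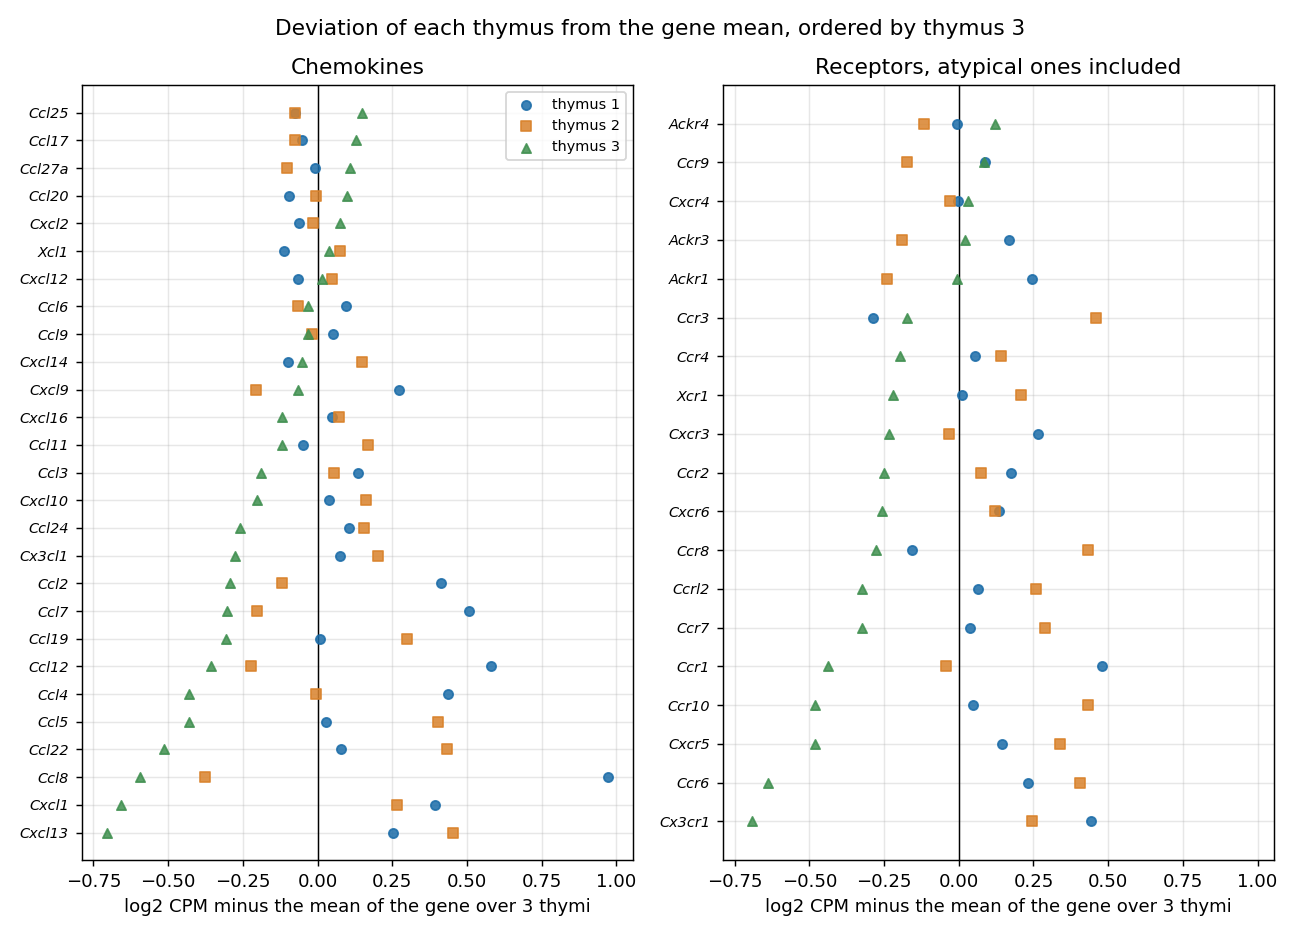
Deviation of each thymus from the mean of the gene, in log2 CPM, for 46 tested members, ordered by thymus 3, with 1 symbol per thymus. Thymus 3 lies left of the line for most members, with Cxcl13, Cx3cr1, Cxcl1 and Ccr6 the farthest, and Ccl8 in thymus 1 is the largest deviation to the right.

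Ccl22 was at 67.4, 86.3 and 44.7 CPM. Its quasi-likelihood p was 0.00214 and its edgeR adjusted p 0.594, with a range from 4.63e-07 to 0.977 over 10 alternatives. Ccl5 was at 38.3, 49.6 and 27.8 CPM (edgeR adjusted p = 0.922, range 0.000329 to 0.982). Ccr7 was at 79.4, 94.6 and 61.9 CPM (edgeR adjusted p = 0.984, range 0.0202 to 0.983), and Cx3cr1 at 12.3, 10.7 and 5.56 CPM (edgeR adjusted p = 0.984, range 0.00643 to 0.995). In all 4 the lowest value was that of thymus 3. Ccr6 and Ccr1, at 6.28, 7.09 and 3.41 and at 6.74, 4.67 and 3.53 CPM, were lowest there too.

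Markers of several cell types were lowest in thymus 3 too. Dendritic cell markers summed to 130.2, 132 and 86.1 CPM, with all 8 genes lowest in thymus 3 and 6 of them highest in thymus 1. Their median deviation from the gene mean was 0.265, 0.064 and −0.288 in log2 CPM. Fscn1, of mature dendritic cells and the most abundant of the 8, was at 40.1, 55.4 and 25.5 CPM, highest in thymus 2. Regulatory T cell markers summed to 97.3, 96.8 and 73.0 CPM with 5 of 5 lowest there, B cell markers to 98.0, 90.1 and 75.3 with 5 of 6, and medullary epithelium markers to 224, 252 and 190.5 with 5 of 6. Mature thymocyte markers summed to 693, 670.1 and 651 CPM with 5 of 6 lowest in thymus 3. Double-positive thymocyte markers, at 11094, 10632 and 11322 CPM, had 1 of 9 lowest there, and neutrophil markers, at 19.6, 15.96 and 40.9 CPM, had 1 of 5. The sums of other lists were also highest in thymus 3. NK and innate-like lymphocyte markers summed to 112, 88.0 and 131 CPM, although 3 of 5 tested were lowest there. Fibroblast and pericyte markers summed to 199, 180 and 205 CPM, with 3 of 6 lowest there. The part of any of these cell types in the member values was not tested.

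The signalling genes downstream of the receptors were mostly above the detection threshold. Of 44 genes listed for G protein relay, receptor kinases and arrestins, regulators of G protein signalling, migration effectors and chemokine handling, 43 reached 1 CPM in all 3 libraries and 0 of 43 tested were called variable by edgeR (2 at an unadjusted p under 0.05). Gnai2 and Gnai3, the inhibitory alpha subunits that couple to chemokine receptors, were at 131 ± 10.1 and 91.1 ± 6.26 CPM per kilobase. Grk2, which phosphorylates activated receptors, was at 129 ± 2.41 and Grk6 at 57.0 ± 4.33. Rgs10 and Rgs14, which end the G protein signal, were at 86.1 ± 5.44 and 40.7 ± 2.03.

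Among the migration effectors, the actin regulator gene Coro1a was at 419 ± 8.46 and the GTPase gene Rac2 at 133 ± 14.6 CPM per kilobase. Cd74, a receptor of the chemokine-like cytokine Mif and the invariant chain of MHC class II, was at 584, 619 and 348 per kilobase, lowest in thymus 3. Mif itself was steady at 35.8 ± 1.83. The platelet chemokine genes Pf4 and Ppbp, which share the chemokine fold, were at 2.59 ± 0.806 and 0.249 ± 0.271 per kilobase.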

How the data were processed

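Per the labels' protocols, DNA and RNA were isolated with the AllPrep kit and libraries made with a TruSeq Stranded mRNA kit. The authors deposited raw read counts per gene for 3 thymi. The submitters' processing notes list STAR 2.5.3a, DESeq2 and GRCm38. For annotation release, trimming and filters the entry is: not given in the sources used here. Values come from the reverse-strand column. The 4 summary lines, 30.9% to 33.6% of reads, were left out. Of 52636 identifiers 52489 matched GENCODE M21. Tools were edgeR 4.0.16 and limma 3.58.1, with DESeq2 1.42.0 as an alternative, all under R 4.3.3. A filter (minimum 10, total 15) left 16548 genes. An intercept-only robust quasi-likelihood fit gave each gene's dispersion over the trended prior, referred one-sided to F, with Benjamini-Hochberg adjustment over all genes at 0.05, and was tested on simulated data. Deviations used log2 CPM with prior count 2.

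The rule for named genes took the 10 highest ligands and 10 highest receptors per kilobase, atypical receptors, their listed partners, members with an unadjusted p under 0.05, and those sharing over 20% of 50-base stretches. Of the signalling lists it took the 2 highest genes of each. Pf4 and Ppbp, and the marker genes Timd4, Adgre1, C1qc and Fscn1, were named after their values were seen. The counts cover all members, of which 1 is not reported here by name or in the plots. Members and lists were chosen with earlier results of these data known. Alternatives covered the unstranded column, other scalings, filters, tests and lengths, GC content, and each library left out.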

Additional observations from a re-analysis of the deposited data

Results flagged for a closer look

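The counts of the opposite strand, which enter no comparison, held reads above the 3-count limit in all 3 libraries, and above the 0.186% median share of all genes tested, at 8 members. Ackr4 had 170, 181 and 141 such reads, a share of 30%, and shares exon bases with Acad11 on the other strand. Ccl28 had 41.2% and Ccl3 13.4%, both from at most 5 reads in a library. The share was 3.89% for Cxcr6, 2.91% for Xcr1, 2.14% for Cx3cr1, 0.813% for Cxcl16, which overlaps Zmynd15, and 0.476% for Ccr9, which overlaps AC165425.1.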

How the results depend on the processing

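The number of members called variable, 0 in the main test, was 5 without a filter on low counts, where calls over all genes went from 10 to 295, 3 when edgeR's negative binomial fit was used, and 2 with DESeq2's dispersion outliers. Leaving out 1 library gave 0 to 1, namely Ccl8 without thymus 2 or without thymus 3. Calls over all genes were then 25, 23 and 137 without thymus 1, 2 and 3. The number of members called stayed at 0 with DESeq2 size factors, the unstranded column, scaling by library totals, a mean of at least 5 CPM and a prior that is not robust. The 30 members that varied beyond counting noise became 13 to 24 with 1 library left out, while calls over all genes went from 7188 to between 3768 and 6579. The 40 members at 1 CPM in every library became 45 at 0.5 CPM and 33 at 2 CPM. Of the 28 levels per kilobase followed through the alternatives, 9 moved by more than their SD with the longest transcript, 1 (Cxcl16, 14.6 against 17.1) with the unstranded column, and 0 with either other scaling. Correction for GC content moved 5 of 141 deviations by more than the SD between thymi, at Ccl20, Ccl25 and Ccl9. The causes were not tested. Members below about 10 counts could not be tested at this depth. No paired analysis was possible because there is 1 group.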
